A study of Mus musculus with 6 samples.

Results

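Heat shock proteins and their DnaJ partners form the chaperone system of the cell, and 77 genes of it were followed in the hearts of WT and Mc4r KO mice. The members were the protein-coding genes whose symbols start with Hspa, Hspb, Hspd, Hspe, Hsph, Hsp90 or Dnaj, together with Hsf1, Hsf2 and Bag3. They made up 77 of the 54532 genes in the deposited table, of which 22046 were protein-coding. A further 14 entries with such symbols were processed pseudogenes and were not members. By class there were 11 HSP70 genes, 3 HSP110 genes, 3 HSP90 genes, 7 small heat shock protein genes, the HSP60 and HSP10 pair, 4 DNAJA, 13 DNAJB and 28 DNAJC genes, and 3 regulators. Another 3, Hspb11, Hspbp1 and Hspbap1, share the start of the symbol with the small heat shock proteins but are not counted among them.

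Poly(A) RNA was sequenced from the hearts of male mice aged 12 weeks, 3 WT (Mc4r+/+) and 3 Mc4r KO (Mc4r-/-), all on the C57B/6/N background. The knockout was homozygous and global, the mice came from matings of heterozygotes, and the WT mice were littermates. Libraries carried replicate numbers 1 to 3 in each group, and the tissue was given as heart in the labels, muscle in the titles and left ventricle in the study's text. Mc4r encodes a melanocortin receptor that acts mainly in the hypothalamus, and its transcript had 2 reads in the WT replicate 3 library and 0 in each of the others, so the genotypes could not be checked from these data.

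Chaperones bind proteins that are unfolded or partly folded. HSP70 proteins hold a client in a cycle driven by ATP, DnaJ proteins bring the client and start ATP hydrolysis, and HSP110 proteins and BAG family members exchange the nucleotide so that the client is released. HSP90 finishes kinases and hormone receptors, HSP60 with its HSP10 lid folds proteins inside mitochondria, and small heat shock proteins hold clients without ATP. In heart muscle, small heat shock proteins, the related crystallin Cryab and the cochaperone Bag3 are bound to the sarcomere and the filaments around the Z disc. Heat shock factor 1, encoded by Hsf1, switches on many of these genes by binding heat shock elements, which are repeats of 5 bases that contain GAA and alternate in direction.

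Heat shock elements were looked for in the promoters of the members, since they tie part of the family to Hsf1. A window from 250 bases before to 50 bases after the start of the gene was on hand in RefSeq (GRCm38.p6) for 62 of the 77 members. The motif was 3 alternating units, GAA then TTC then GAA or TTC then GAA then TTC, with 2 bases of any kind between units, and was read on both strands. It was present for 4 members (6.45% of 62), against 0.662% of 27025 genes. These were Hspd1 and Hspe1, which share a promoter, Dnajb6, which encodes a suppressor of protein aggregation, and Hsph1, which encodes an HSP110. The 30 bases around each match are shown because these members differed in how their transcripts varied among the hearts, and capitals mark the matched units with their spacers.

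Hspd1 and Hspe1, chr1:55088053-55088082, + strand: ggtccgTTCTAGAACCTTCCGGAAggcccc

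Dnajb6, chr5:29735844-29735873, + strand: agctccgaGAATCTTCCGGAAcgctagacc

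Hsph1, chr5:149636279-149636308, - strand: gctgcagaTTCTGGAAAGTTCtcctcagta

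The Hspd1 and Hspe1 sequence held 4 alternating units in 18 bases. It lay between the RefSeq starts of these genes, which point away from each other with 215 bases between them, and its last base was 72 bases before the start of Hspe1. GENCODE M21 also places an untranslated first exon of a longer Hspd1 transcript there. The Dnajb6 match began 46 bases before the RefSeq start, in the untranslated first exon of a GENCODE transcript that begins earlier and under a predicted gene, Gm5129, on the opposite strand. The Hsph1 match began at base 16 of the transcript, in its 5′ untranslated region. A shorter form with 2 units, GAA and TTC with 2 bases between them in either order, was present in 17 of the 62 windows (27.4%), among them Hspa1a, Hspa1b, Bag3, Hspb1, Hspb6, Hspb8, Dnaja1 and Dnajb4, against 17.0% of all genes, and each 3-unit match also contains it. TATAAA was present in 4 windows (6.45%, against 15.7% of all genes) and CCAAT in 26 (41.9%, against 41.1%), both read on either strand. These matches describe the letters of the windows and not the binding of a factor.

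Expression was deposited as FPKM, in which the fragment count of a gene is divided by its length and by a scaling factor of the library, so that levels of different genes can be set side by side. The number of reads behind each value was recovered from the table. The WT libraries had 14767929, 14888500 and 16047003 reads on genes and the Mc4r KO libraries 14691076, 15535174 and 15649074, in the order of their replicate numbers, which is the order used for every series of 3 values given here. The scaling factor did not follow these totals: 1 read on a gene of 1 kb was 0.0709 FPKM in WT replicate 1 and 0.0644 in Mc4r KO replicate 1, although their totals were nearly equal, and the median-of-ratios factors of the deposited values were the same in the 6 libraries. A gene of 1 kb with 3 reads had an FPKM of 0.176 to 0.213, depending on the library, and this limit covers counting error only. A mean FPKM of at least 0.1 over the 6 libraries was required for a test, and 71 of the 77 members passed it. Dnajb8 and Dnajc5g had 0 reads in each library, and Dnajb7, Dnajc5b, Dnajc6 and Dnajc22 had a mean below 0.1 FPKM.

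Several properties of the libraries moved with the groups and bear on every comparison. Of the summed FPKM, mitochondrial transcripts held 59.3%, 57.4% and 47.1% in WT hearts and 43.6%, 46.6% and 43.0% in the knockouts. WT replicate 3 stood apart from the other WT libraries: across 10169 genes its log2 values correlated at r = 0.971 and 0.972 with WT replicates 1 and 2 and at 0.981 with Mc4r KO replicate 1. It also held atrial transcripts, with Myl7 at 307 FPKM, against 0.240 and 28.1 in the other WT hearts and 38.8, 0.558 and 0.528 in the Mc4r KO hearts. The 4 atrial markers summed to 28.6, 95.2 and 747 FPKM in the WT hearts and to 136, 6.29 and 43.7 in the Mc4r KO hearts, with Nppa the most abundant. In mitochondrial share, however, WT replicate 3 (47.1%) lay near the Mc4r KO libraries (43.0% to 46.6%) and away from WT replicates 1 and 2. The calls and the main counts of the chaperone genes are given with and without WT replicate 3. In a fit without it, the WT libraries left are those at 59.3% and 57.4%, and genotype cannot be told apart from this share.

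The chaperone genes ranged from abundant transcripts of the heart to genes with no reads. Of the 77 members, 9 had a mean of at least 100 FPKM, 25 lay between 10 and 100, 30 between 1 and 10, 7 between 0.1 and 1, and 6 below 0.1. The 9 were Hspb7, Hsp90ab1, Hspb6, Hspa8, Hspb8, Hspa9, Hspb1, Hspd1 and Hspa5. Hspb7 stood highest and ranked 51 among all genes of the table by mean FPKM. The ranges of Hsp90ab1 (349 to 437 FPKM) and Hspb6 (261 to 422) overlapped, and these genes could not be ranked against each other beyond their spread. Hspa8 (223 to 330) was below both in each of the 6 libraries.

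**Figure D1:**
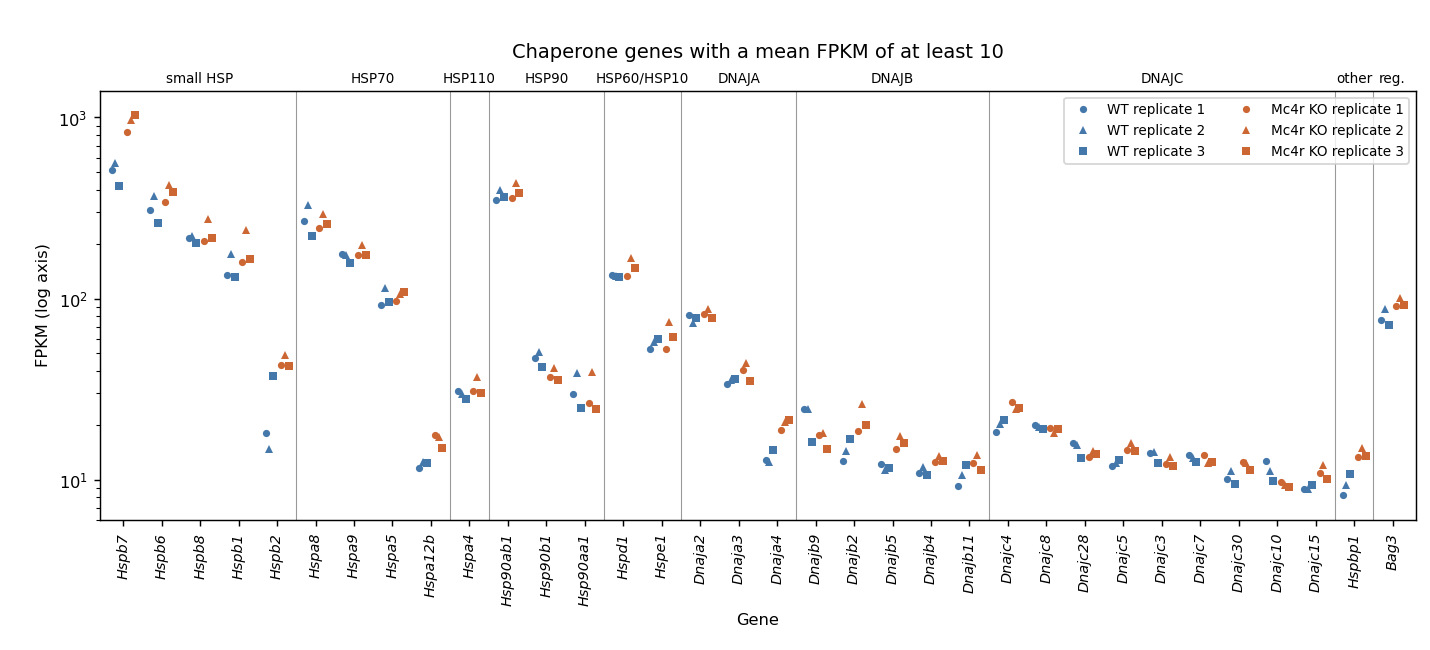
FPKM (log axis) of the 34 chaperone genes with a mean of at least 10, grouped by class, with 1 point per library (WT in blue, Mc4r KO in orange, symbols for replicate numbers; "other" is Hspbp1 and "reg." is Bag3). Hspb7 is the highest gene in the Mc4r KO hearts, at 828 to 1026 FPKM, and its groups do not overlap.

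The comparison of Mc4r KO with WT hearts asked whether loss of the receptor was accompanied by a change in chaperone transcripts at an age of 12 weeks. With all 6 libraries no member was called, and the smallest adjusted p were those of Dnaja4 and Hspb7. Genes were tested with limma on log2(FPKM + 0.1), which understates the change of weakly expressed genes, and genes were called where the adjusted p was under 0.05 and the log2 fold change was past 0.75 in either direction. The adjustment covered the 18035 genes tested, of which 0.46% were called. The unadjusted limma p was under 0.05 for 17 members with higher values in the Mc4r KO hearts, 23.9% of 71, against 12% of all genes tested. It was under 0.05 for 4 members with lower values, 5.63% of 71, against 8.83% of all genes. These shares are also the background of the counts at this p given for classes and lists of genes. Chaperones are more abundant than most tested genes, and among protein-coding genes with a mean of at least 1 FPKM the shares were 17.5% higher and 10.9% lower, beside 17 and 4 of 64 members. The 3 Mc4r KO libraries lay above the 3 WT libraries for 17 members (14.1% of all genes) and below them for 5 (12.4%). Among genes with a mean of at least 1 FPKM these shares were 19.6% and 13.9%, beside 16 and 5 of 64 members.

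The median log2 fold change of the 71 members was 0.13, beside -0.01 for all genes, and 45 of them had values above 0. This direction depended on the scaling: with FPKM scaled to the sum outside the mitochondrial chromosome, where the all-gene median was -0.19, the median of the members was -0.06, with 7 members higher (4.93% of all genes) and 12 lower (18.1% of all genes) at an unadjusted limma p under 0.05. With quantile normalization 11 were higher (9.96% of all genes) and 7 lower (9.34%). Relative to the median of all genes, the median of the members lay 0.14 higher with the deposited values, 0.13 with scaling outside the mitochondrial chromosome, 0.03 with quantile normalization and 0.06 without Mc4r KO replicate 2. Mc4r KO replicate 2 was the highest of the 6 libraries for 31 of the 71 members (43.7%), against 18.5% of all genes, and without it the median of the members was 0.05. WT replicate 3 was the highest library for 3 members (4.23%, against 16.1% of all genes) and the lowest for 17 (23.9%, against 15.2%), and WT replicate 1 was the lowest for 22 (30.99%, against 24.96%).

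Without WT replicate 3, limma gave an adjusted p under 0.05 for 8 members with higher values (6.94% of all genes) and for 3 with lower values (3.33%). The 8 were Hspb2, Hspb7, Dnaja4, Dnajb5, Dnajc4, Dnajc11, Hspa12b and Hspbp1, and the 3 were Hspa2, Hspa12a and Dnajb9. Of these, Hspb2, Hspb7 and Hspa2 also passed the threshold on the fold change and were called, 3 of 71 members against 4.04% of all genes. The WT libraries left in this fit have the highest mitochondrial shares, so these calls cannot be told apart from that difference. At an unadjusted limma p under 0.05, 13 members then had higher (15.6% of all genes) and 9 had lower values (12.6%), and these shares are the background of the counts given without that library.

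**Figure D2:**
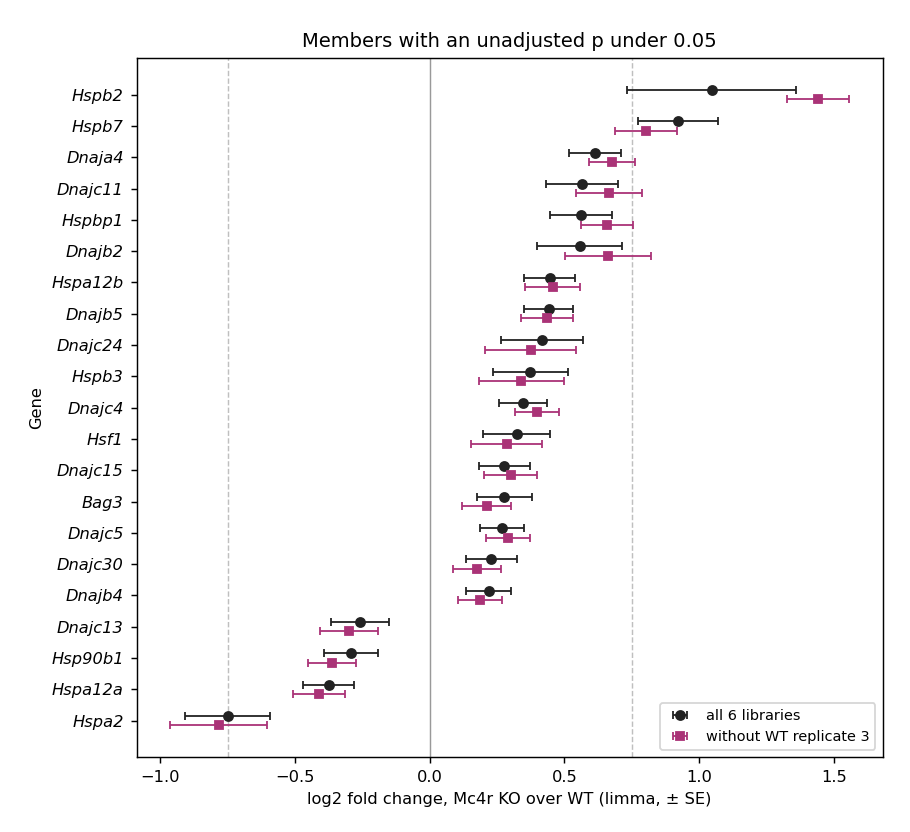
Log2 fold change, Mc4r KO over WT, with its SE from limma, for the 21 members with an unadjusted p under 0.05, in all 6 libraries (black circles) and without WT replicate 3 (purple squares); dashed lines mark a change of 0.75 in either direction. The estimate of Hspb2 moves from 1.05 to 1.44, while that of Hspb7 moves from 0.92 to 0.80.

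The small heat shock proteins were the most abundant class in each library. Their summed level was 1201, 1344 and 1059 FPKM in the WT hearts and 1587, 1961 and 1844 FPKM in the Mc4r KO hearts, so the groups did not overlap. As a share of all chaperone FPKM in the same library, which a scaling between libraries cannot alter, they held 40.8%, 41.3% and 38.7% in the WT hearts and 47.3%, 48.8% and 50.3% in the Mc4r KO hearts. Most of this lay in 1 gene: without Hspb7 in either sum, the share was 28.3%, 29.1% and 27.6% against 30.04%, 32.6% and 31.0%. All 7 members had log2 fold changes above 0, with a median of 0.37, 3 of them with an unadjusted limma p under 0.05 and 0 called. With scaling outside the mitochondrial chromosome the median was 0.18 and with quantile normalization 0.32, and Hspb8 turned to -0.08 and -0.09 under them. A share of the same library can still move with a trend in GC content. With the GC trend of each library removed the median was 0.31, with Hspb1 at 0.02, Hspb6 at 0.15 and Hspb8 at 0.01.

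Hspb7 (ENSMUSG00000006221, chr4:141420779-141425311 in mm10, + strand) encodes a small heat shock protein of heart and skeletal muscle that binds the actin cross-linker filamin C and the thin filament. Its FPKM was 515, 560 and 420 in the WT hearts and 828, 967 and 1026 in the Mc4r KO hearts, from at least 19810 reads in each library. Every Mc4r KO heart lay above every WT heart, and the ratio of the means was 1.89. The log2 fold change was 0.92 ± 0.15 (SE), with a limma adjusted p of 0.0541 over all genes. Without WT replicate 3, the lowest of the WT hearts, the log2 fold change was 0.80 with an adjusted p of 0.0167, which made it a call. On the recovered reads, limma voom gave an adjusted p of 0.00523, and over the 20 alternatives the adjusted p lay between 0.00523 and 0.2 with the same direction in each.

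Ratios to other genes of the same library placed the difference in Hspb7 beside its neighbours without any scaling. Hspb7 over Hspb6, the small heat shock protein HSP20, was 1.68, 1.53 and 1.61 in the WT hearts and 2.43, 2.29 and 2.66 in the Mc4r KO hearts. Hspb7 over Cryab was 0.821, 0.855 and 0.777 against 1.10, 1.05 and 1.22. Hspb7 over Myh6, the main myosin heavy chain of the adult mouse ventricle, was 0.231, 0.231 and 0.155 against 0.307, 0.328 and 0.333. None of these 3 ratios overlapped between the groups, and the same held for the ratios to Hspb8, Hspb1, Hspa8, Hsp90ab1 and each of the other 7 ventricular cardiomyocyte markers, whose means differed by 1.30-fold (Actc1) to 2.37-fold (Pln). The exact two-sided permutation p of such a ratio cannot go below 0.1 with 3 hearts against 3. A ratio removes the scale of a library but not a trend with GC content, which was 57.5% in Hspb7 and 38.6% in Pln. With the GC trend of each library removed, the log2 fold changes of these genes were 0.72 and -0.12.

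Hspb2 (ENSMUSG00000038086, chr9:50751078-50752354, - strand) encodes a partner of the muscle kinase DMPK and of Hspb3. Its FPKM was 18.03, 14.9 and 37.3 in the WT hearts and 42.8, 49.1 and 42.2 in the Mc4r KO hearts. WT replicate 3 lay near the Mc4r KO hearts and far from the other WT hearts, and the groups did not overlap. The log2 fold change was 1.05 ± 0.31 (limma adjusted p = 0.133) with all libraries and 1.44 (adjusted p = 0.00491) without WT replicate 3. With the mitochondrial share as a covariate it was 0.16. Of the exonic sequence of Hspb2, 30.2% lies under Cryab on the opposite strand. Whether the counting used strand is not given in the sources used here, and Cryab was 627, 655 and 540 FPKM in the WT hearts and 751, 923 and 840 in the Mc4r KO hearts, so reads of both genes cannot be told apart in that stretch. The ratio of Hspb2 to Cryab overlapped between the groups. Hspb3, its partner, was 7.63, 5.62 and 6.09 FPKM against 7.92, 9.36 and 7.74, a log2 fold change of 0.37 (limma adjusted p = 0.198). Its lowest Mc4r KO heart lay just above its highest WT heart.

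The other abundant small heat shock proteins overlapped between the groups. Hspb6 was 307, 367 and 261 FPKM in the WT hearts and 341, 422 and 386 in the Mc4r KO hearts (limma log2 fold change 0.31, adjusted p = 0.295). Hspb1, the heat-inducible HSP25, was 136, 176 and 132 against 158, 238 and 166 (0.33, adjusted p = 0.36). Hspb8, which works with Bag3 to send damaged filamin to autophagy, was 217, 221 and 202 against 208, 274 and 216 (0.12, adjusted p = 0.636). In each of these 3 genes Mc4r KO replicate 2 was the highest library, and without it the value of Hspb1 was 0.15 and that of Hspb8 -0.0097. That of Hspb6 was 0.19 without WT replicate 3. Of the 50-base words of Hspb1, 50.1% also occur in other transcripts, chiefly its pseudogene Hsp25-ps1, so its reads are uncertain. Hspb9, a gene known from testis, had between 0 and 8 reads in a library.

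**Figure D3:**
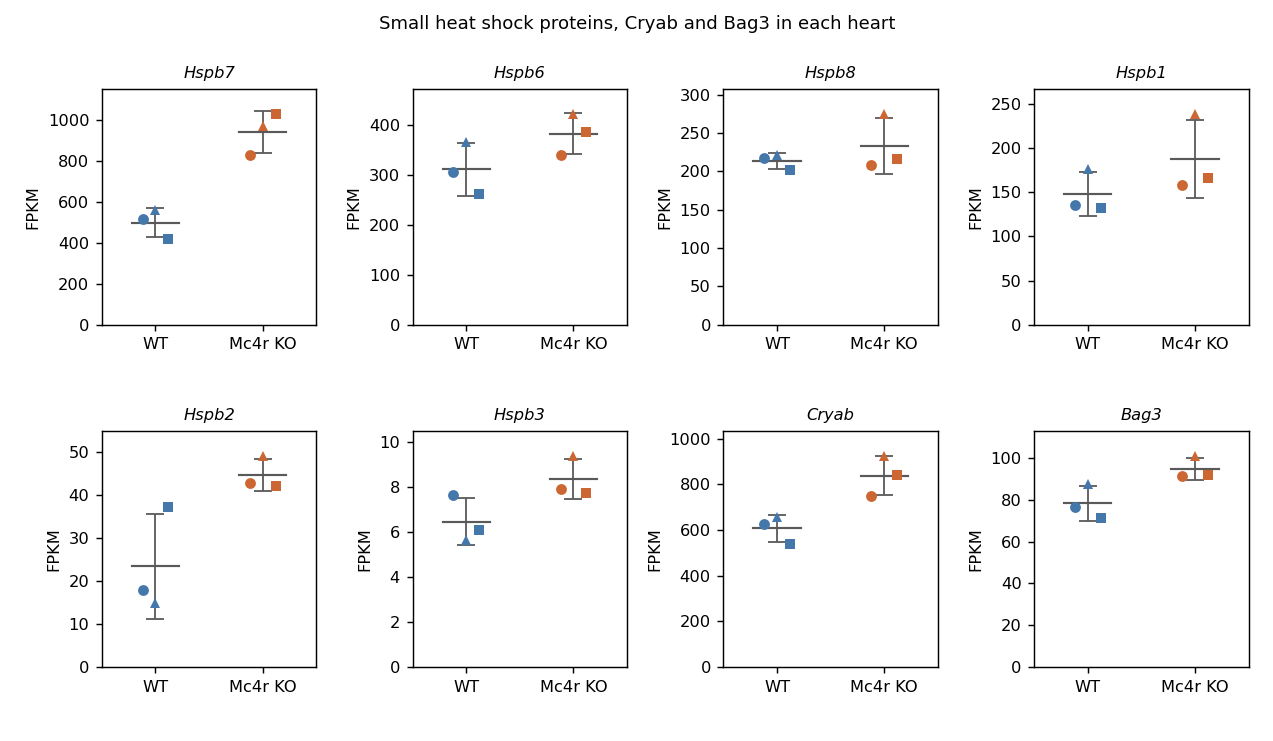
FPKM of 6 small heat shock proteins, Cryab and Bag3, with 1 point per heart (circle, triangle and square for replicates 1, 2 and 3), the group mean as a horizontal line and ± 1 SD as bars (n = 3). Hspb7, Hspb2, Hspb3, Cryab and Bag3 do not overlap between the groups, and WT replicate 3 of Hspb2 sits at 37.3, beside the Mc4r KO hearts.

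The clients and partners of the small heat shock proteins also had values above 0. Of Cryab, Flnc, Synpo2 and Des, the 4 of 5 genes on this list that were tested, 4 had an unadjusted limma p under 0.05 with higher values in the Mc4r KO hearts and 0 were called. Flnc and Synpo2 kept such a p with scaling outside the mitochondrial chromosome, with quantile normalization and with the GC trend of each library removed, and Cryab and Des did not under any of them, with Des at 0.11, 0.12 and 0.12. Cryaa, the lens crystallin, had 0 reads. Flnc, which encodes filamin C, was 19.2, 26.7 and 23.7 FPKM in the WT hearts and 34.7, 48.3 and 42.7 in the Mc4r KO hearts. Its log2 fold change was 0.85 ± 0.16 with a limma adjusted p of 0.0666, and 0.87 with an adjusted p of 0.0408 without WT replicate 3. With all libraries, Cryab had a log2 fold change of 0.46 (limma adjusted p = 0.123). Synpo2, a Z-disc protein that binds filamin, had 0.56 (limma adjusted p = 0.0756), and Des, the intermediate filament desmin, had 0.30 (adjusted p = 0.175). The groups did not overlap for any of these 4 genes.

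These are bulk values, in which more cells of a type and more RNA per cell cannot be told apart. The 8 ventricular cardiomyocyte markers summed to 15022, 15331 and 14254 FPKM in the WT hearts and to 17233, 18824 and 18007 in the Mc4r KO hearts. Actc1, the most abundant, was 5495, 5470 and 4568 against 7123, 8307 and 7188 and carried much of this sum. Log2 fold changes were above 0 for 6 of the 8 and below 0 for 2, with Pln at -0.33. At an unadjusted limma p under 0.05, 2 of 8 (Ryr2 and Actc1) had higher and 0 had lower values. The 5 fibroblast markers summed to 183, 187 and 180 against 152, 134 and 134, with Dcn the most abundant, and 3 of 5 had lower values at that p. The other 2 had log2 fold changes above 0, up to 0.44. Without WT replicate 3, 1 of 5 had higher and 3 had lower values at that p. The 5 erythrocyte markers summed to 4497, 859 and 6344 against 1651, 663 and 620, with Hbb-bs the most abundant, and 3 of 5 had lower values at that p with all libraries and 1 of 5 without WT replicate 3. The 5 endothelial markers summed to 167, 182 and 148 against 187, 192 and 163, and 2 of 5 (Tie1 and Egfl7) had higher values at an unadjusted limma p under 0.05. Of the 5 macrophage markers, 3 (Csf1r, Cd68 and Mrc1) had lower values at that p and did not overlap, and without WT replicate 3 none of the 3 passed that p. The median log2 fold change of the list was -0.37 with all libraries and -0.27 without that one. C1qa, the most abundant, was 22.6, 22.7 and 51.2 against 53.8, 46.2 and 39.7 and carried the sum of the list, at 55.96, 50.04 and 87.56 against 81.6, 71.7 and 63.2, and the log2 fold change of C1qa was 0.63 (limma adjusted p = 0.303) with all libraries and 1.02 (adjusted p = 0.0129) without WT replicate 3. The 5 smooth muscle and pericyte markers summed to 268, 261 and 201 against 245, 263 and 174. The 5 neuron markers summed to 1.48, 1.45 and 1.92 FPKM against 2.55, 2.23 and 2.64, without overlap, with Stmn2 the most abundant, and 1 of the 2 tested had higher values at that p. Markers of skeletal muscle summed to at most 1.49 FPKM in a library, with Myh4 at 0, and those of adipocytes and testis germ cells to at most 0.450 and 0.153. The part of these cell types in the values of the chaperones was not tested.

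The HSP70 class had no common direction. The median log2 fold change over its 11 genes was -0.04, and at an unadjusted limma p under 0.05, 1 had higher and 2 had lower values. Hspa8, the constitutive HSP70 of the cytosol, was 269, 330 and 223 FPKM in the WT hearts and 247, 292 and 257 in the Mc4r KO hearts. The groups overlapped, and the log2 fold change was -0.03 ± 0.16 (limma adjusted p = 0.935). Hspa9, the mitochondrial HSP70 mortalin, was 176, 174 and 158 against 174, 199 and 174, also with overlap (0.11, limma adjusted p = 0.568). Hspa5, the HSP70 of the endoplasmic reticulum known as BiP, was 92.1, 114 and 95.2 against 96.9, 106 and 109 (0.05, limma adjusted p = 0.824).

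The HSP70 genes with the smallest p were members of low or moderate level. Hspa2 (chr12:76404176-76406938, + strand), best known from spermatogenesis, was 3.81, 3.13 and 3.22 FPKM in the WT hearts and 2.27, 1.62 and 2.07 in the Mc4r KO hearts, from 65 to 145 reads. All Mc4r KO hearts lay below all WT hearts. The log2 fold change was -0.75 ± 0.16 (limma adjusted p = 0.0808), and -0.78 (adjusted p = 0.0483) without WT replicate 3. Hspa12a and Hspa12b encode distant relatives of HSP70, and their values lay on opposite sides. Hspa12a was 7.58, 7.25 and 6.86 FPKM in the WT hearts and 5.18, 5.91 and 5.58 in the Mc4r KO hearts, a log2 fold change of -0.38 (limma adjusted p = 0.106). Hspa12b, which is known from endothelial cells, was 11.6, 12.5 and 12.3 against 17.7, 17.2 and 14.9, a log2 fold change of 0.45 (limma adjusted p = 0.0835). Neither gene overlapped between the groups. Against the 5 endothelial markers of the same library, the ratios of Hspa12b to Cdh5, Pecam1 and Egfl7 did not overlap between the groups, with means that differed by 1.42-fold, 1.203-fold and 1.09-fold. Its ratio to Kdr overlapped, and so did its ratio to Tie1, the endothelial receptor with the largest log2 fold change of the 5 (0.42), at 0.493, 0.467 and 0.486 in the WT hearts and 0.531, 0.485 and 0.456 in the Mc4r KO hearts. The part of endothelial RNA in Hspa12b was not tested further.

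Several heat-inducible genes varied widely among hearts of the same group. The set of 11 cytosolic genes that heat shock is known to raise had a median of -0.03 for the log2 fold change, 2 genes with higher values at an unadjusted limma p under 0.05 (Bag3 and Dnajb4) and 0 with lower values. With scaling outside the mitochondrial chromosome these counts were 0 and 2 with a median of -0.23, and with quantile normalization 0 and 0 with -0.21. Without WT replicate 3 they were 0 and 0 with -0.08. Hsph1, the gene with the element shown above in its untranslated region, was 0.752, 8.02 and 3.82 FPKM in the WT hearts and 7.08, 12.8 and 9.01 in the Mc4r KO hearts. These came from 77, 837 and 473 reads against 798, 1409 and 1050, so WT replicate 1 was low with a count far above the limit of detection. The highest library was 17.0-fold above the lowest, against a median of 1.40-fold for the 64 members with a mean of at least 1 FPKM. The log2 fold change was 1.65 ± 0.74, the groups overlapped and the limma adjusted p was 0.261. Leaving out WT replicate 1 brought the value to 0.74.

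Hspa1a and Hspa1b encode the stress-inducible HSP70 and lie side by side on chromosome 17. Hspa1b was 0.810, 3.06 and 2.58 FPKM in the WT hearts and 1.38, 1.06 and 1.11 in the Mc4r KO hearts. Hspa1a was 0.645, 1.62 and 1.27 against 0.695, 0.887 and 0.882. In both genes WT replicate 1 was the lowest library and the groups overlapped, with limma log2 fold changes of -0.63 and -0.39 and adjusted p of 0.468 and 0.525. Without WT replicate 1 these values were -1.19 and -0.74, and without WT replicate 2 -0.29 and -0.14. The 2 genes share 62.3% of the 50-base words of Hspa1b, so the split of reads between them is uncertain. Dnajb1, the DnaJ partner HSP40 of the inducible HSP70, was 5.62, 10.9 and 8.91 against 6.01, 5.03 and 6.23, with WT replicate 1 again the lowest WT heart (log2 fold change -0.50, limma adjusted p = 0.273; -0.77 without WT replicate 1 and -0.2996 without WT replicate 2). Hsph1 lay on the other side of 0 from these 3 genes.

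Of the 3 HSP90 genes, the pair of cytosolic ones overlapped between the groups and Hsp90b1 did not. Hsp90ab1, the constitutive cytosolic form, was 349, 398 and 364 FPKM in the WT hearts and 359, 437 and 383 in the Mc4r KO hearts. Hsp90aa1, the inducible form, was 29.9, 38.9 and 25.0 against 26.6, 39.4 and 24.6, and replicate 2 was the highest of its group in both genotypes. Both overlapped between the groups, with limma log2 fold changes of 0.08 and -0.06 and adjusted p of 0.717 and 0.909. Of the 50-base words of Hsp90aa1, 47.5% also occur in other transcripts, chiefly Gm12346. Hsp90b1, the HSP90 of the endoplasmic reticulum known as GRP94, was 47.2, 50.5 and 42.2 FPKM in the WT hearts and 37.1, 41.5 and 35.6 in the Mc4r KO hearts. It did not overlap and had a log2 fold change of -0.29 ± 0.10 (limma adjusted p = 0.173). Hspa4, the most abundant HSP110, was 31.0, 29.8 and 28.0 against 30.9, 37.0 and 30.1 (limma log2 fold change 0.14, adjusted p = 0.499).

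**Figure D4:**
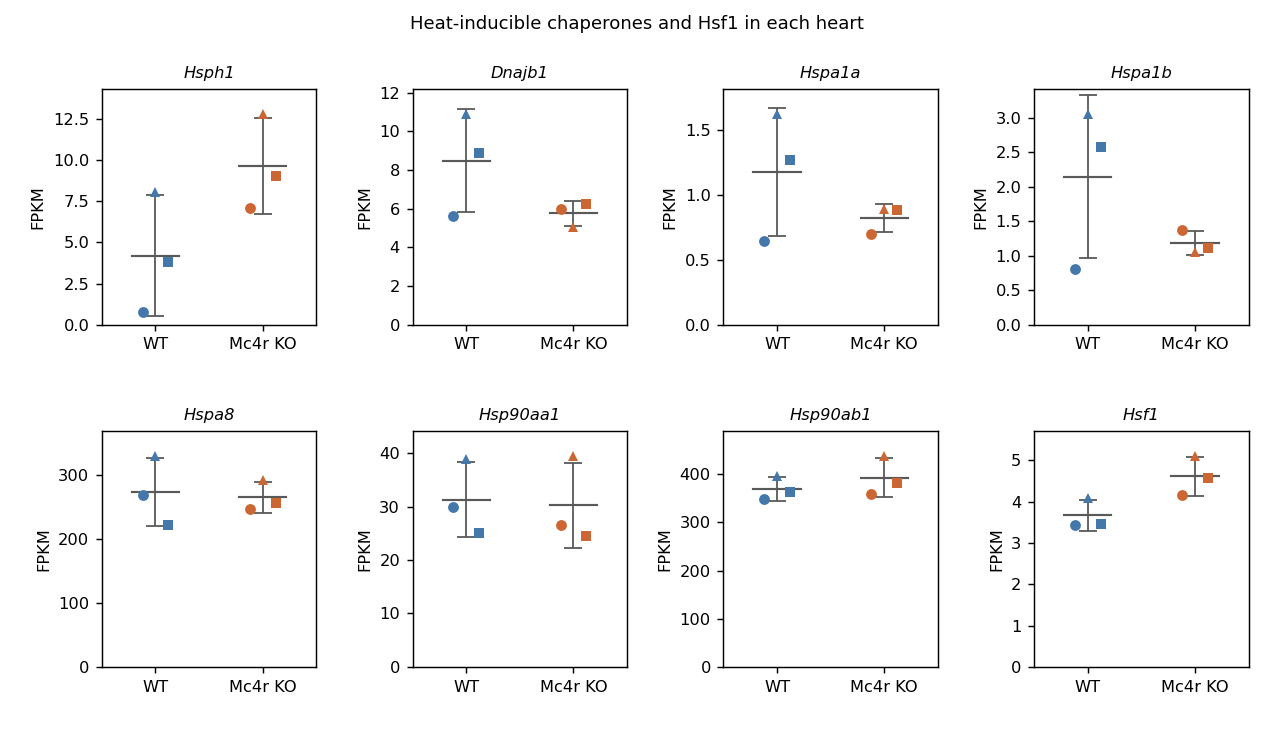
FPKM of heat-inducible chaperones, Hspa8, Hsp90ab1 and Hsf1, with 1 point per heart (circle, triangle and square for replicates 1, 2 and 3), the group mean as a horizontal line and ± 1 SD as bars (n = 3). WT replicate 1 is the lowest WT heart in Hsph1, Dnajb1, Hspa1a and Hspa1b, and only Hsf1 does not overlap between the groups.

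The HSP60 and HSP10 chaperonins of mitochondria overlapped between the groups. Hspd1, which encodes HSP60, was 135, 134 and 131 FPKM in the WT hearts and 133, 167 and 147 in the Mc4r KO hearts. Hspe1, which encodes HSP10, was 53.0, 57.9 and 59.5 against 52.8, 74.6 and 61.2. Both overlapped, with limma log2 fold changes of 0.15 and 0.13 and adjusted p of 0.435 and 0.601. Without Mc4r KO replicate 2 these values were 0.0691 and 0.0023, without Mc4r KO replicate 1 0.23 and 0.25, and both were below 0 with scaling outside the mitochondrial chromosome and with quantile normalization. Their ratio, Hspd1 over Hspe1, stayed between 2.21 and 2.54 in the 6 hearts (group means 2.35 and 2.39), and these are the genes that share the promoter with 4 units shown above. The pseudogene Hspd1-ps3, which holds 38.0% of the 50-base words of Hspd1, had 557, 428 and 216 reads in the WT hearts and 110, 123 and 159 in the Mc4r KO hearts. Of the words of Hspe1, 22.8% also occur in other transcripts. Over the 8 members placed in mitochondria, 3 had higher values (12% of all genes) at an unadjusted limma p under 0.05 (Dnajc11, Dnajc15 and Dnajc30) and 0 had lower values (8.83%), and with scaling outside the mitochondrial chromosome these counts were 1 (4.93%) and 0 (18.1%).

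The DnaJ proteins share the J domain that starts ATP hydrolysis by HSP70, and their A, B and C types differ in the rest of the protein. Of the 39 DnaJ genes tested, 10 had higher (12% of all genes) and 1 had lower values (8.83%) at an unadjusted limma p under 0.05, with 1 of 4 DNAJA, 3 of 11 DNAJB and 6 of 24 DNAJC genes higher. With scaling outside the mitochondrial chromosome 4 of the 39 had higher (4.93% of all genes) and 9 had lower values (18.1%), with quantile normalization 6 (9.96%) and 4 (9.34%), and without WT replicate 3, 8 (15.6%) and 5 (12.6%). The median log2 fold changes of these types were 0.13, 0.22 and 0.01. With the former scaling they were -0.06, 0.02 and -0.18, so the medians of DNAJA and DNAJC changed sign, and with quantile normalization that of DNAJA was again -0.06.

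Dnaja4 (chr9:54698873-54716315, + strand), a DnaJ of the cytosol, had the smallest p of the 71 members. Its FPKM was 12.9, 12.5 and 14.5 in the WT hearts and 18.8, 20.96 and 21.4 in the Mc4r KO hearts. The lowest Mc4r KO heart lay above the highest WT heart, and the log2 fold change was 0.61 ± 0.10 (limma adjusted p = 0.0514). Without WT replicate 3 the adjusted p was 0.0124 with a log2 fold change of 0.68, which is under the threshold on size. Of its exonic sequence, 44.1% lies under Wdr61 on the opposite strand, and Wdr61 itself was 3.14, 3.03 and 3.14 FPKM in the WT hearts and 3.57, 2.72 and 3.64 in the Mc4r KO hearts. The most abundant DNAJA, Dnaja2, was 81.7, 73.6 and 78.4 against 81.9, 87.9 and 78.3, and Dnaja3, the mitochondrial form, was 33.6, 35.4 and 36.1 against 40.2, 43.9 and 35.1. Both overlapped (limma adjusted p = 0.597 and 0.37). Dnaja1, a partner of Hspa8, was 7.25, 7.89 and 9.06 against 7.03, 7.75 and 6.70, also with overlap (limma log2 fold change -0.17, adjusted p = 0.453).

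Among the DNAJB genes, Dnajb5 and Dnajb2 had the smallest p. Dnajb5, a DnaJ of heart muscle that binds class II histone deacetylases, was 12.2, 11.4 and 11.6 FPKM in the WT hearts and 14.8, 17.4 and 15.9 in the Mc4r KO hearts (limma log2 fold change 0.44, adjusted p = 0.0763). Dnajb2, which delivers ubiquitylated clients to the proteasome, was 12.6, 14.4 and 16.8 against 18.6, 26.2 and 20.1 (0.56, adjusted p = 0.124). Dnajb4 was 10.9, 11.8 and 10.6 against 12.5, 13.5 and 12.7 (0.22, adjusted p = 0.208). None of the 3 overlapped between the groups. Dnajb6, the gene with a 3-unit element shown above, was 9.55, 8.32 and 8.18 FPKM against 8.18, 8.51 and 8.26, a range of 1.17-fold over the 6 hearts (limma adjusted p = 0.766). Dnajb13, known from sperm flagella and cilia, had 1 to 6 reads in a WT library and 8 to 17 in a Mc4r KO library.

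The DNAJC genes serve many compartments and had 12 values above and 12 below 0. Dnajc11, part of the complex that shapes mitochondrial cristae, was 3.63, 3.95 and 4.68 FPKM in the WT hearts and 5.41, 6.73 and 6.15 in the Mc4r KO hearts (limma log2 fold change 0.57, adjusted p = 0.0966). Dnajc4, the most abundant DNAJC, was 18.4, 20.2 and 21.5 against 26.8, 24.5 and 25.0 (0.35, adjusted p = 0.108). Dnajc5, the cysteine string protein of secretory vesicles, was 12.0, 12.4 and 12.8 against 14.6, 16.0 and 14.4 (0.27, adjusted p = 0.141). The groups of these 3 genes did not overlap. Dnajc15, Dnajc24 and Dnajc30 had log2 fold changes of 0.28, 0.42 and 0.23 with limma adjusted p from 0.169 to 0.232, and 26.3% of the exonic sequence of Dnajc30 lies under Bud23 on the opposite strand. Dnajc8, a factor of splicing, was 20.01, 19.5 and 19.1 against 19.4, 18.1 and 19.1 and overlapped (limma adjusted p = 0.744).

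The members with lower values in the Mc4r KO hearts at the smallest p included several DNAJC genes. Dnajc13, which acts on endosomes, was 4.47, 4.96 and 4.30 FPKM in the WT hearts and 3.54, 3.95 and 3.94 in the Mc4r KO hearts (limma log2 fold change -0.26, adjusted p = 0.231). Dnajc2, which sits on the ribosome, was 4.88, 5.12 and 3.55 against 3.95, 3.15 and 3.23 and overlapped (-0.37, adjusted p = 0.266). Dnajc21, a factor of ribosome assembly, had -0.22 (limma adjusted p = 0.406).

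Of the 8 endoplasmic reticulum members, Hsp90b1 had lower values in the Mc4r KO hearts at an unadjusted p and the rest did not. Of these genes, 0 had higher and 1 had lower values at an unadjusted limma p under 0.05, with a median log2 fold change of -0.12, 6 of 8 below 0 and 0 called. Lower values at that p numbered 4, with a median of -0.32, with scaling outside the mitochondrial chromosome, and 0, with a median of -0.02, with the GC trend of each library removed. Without WT replicate 3, 1 had higher and 3 had lower values at that p. Beside Hsp90b1, Dnajc10, a reductase of disulfides, was 12.8, 11.2 and 9.90 FPKM in the WT hearts and 9.69, 9.39 and 9.13 in the Mc4r KO hearts, without overlap (-0.26, limma adjusted p = 0.244). Dnajb9, an early target of the unfolded protein response, was 24.7, 24.6 and 16.2 against 17.6, 18.1 and 14.8. WT replicate 3 of Dnajb9 lay among the Mc4r KO hearts, and the log2 fold change was -0.35 (limma adjusted p = 0.307) with it and -0.55 (adjusted p = 0.0295) without it. With the mitochondrial share as a covariate the value of Dnajb9 turned to 0.18. In the wider list of 14 chaperones and enzymes of the same compartment, 1 gene had higher and 1 had lower values at an unadjusted limma p under 0.05. These were Creld2 (log2 fold change 0.54, limma adjusted p = 0.147) and Canx, which encodes the lectin chaperone calnexin (62.3, 61.8 and 53.4 FPKM against 45.1, 46.3 and 49.9, log2 fold change -0.33, limma adjusted p = 0.123). Calu had -0.16 (limma adjusted p = 0.319), and the most abundant gene of the list, Calr, had 0.17 (adjusted p = 0.414).

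Of the 3 regulators, Hsf1 and Bag3 had higher values in the Mc4r KO hearts at an unadjusted limma p under 0.05, and neither did without WT replicate 3, with scaling outside the mitochondrial chromosome or with the GC trend of each library removed. Hsf1 was 3.45, 4.09 and 3.47 FPKM in the WT hearts and 4.16, 5.10 and 4.58 in the Mc4r KO hearts, a log2 fold change of 0.32 ± 0.12 (limma adjusted p = 0.206). Bag3, the cochaperone that joins HSP70 to the small heat shock proteins in muscle, was 76.4, 87.7 and 71.4 against 91.5, 100.9 and 92.1, a log2 fold change of 0.28 ± 0.10 (limma adjusted p = 0.19). The value of Bag3 was 0.08 with scaling outside the mitochondrial chromosome, 0.06 with quantile normalization and 0.10 with the GC trend removed, and that of Hsf1 was 0.13, 0.31 and 0.21. Neither overlapped between the groups, though the closest hearts of each lay near each other. Hsf2, the second factor, was 1.90, 1.91 and 1.42 against 1.40, 1.58 and 1.499 with overlap (-0.20, limma adjusted p = 0.523). Without WT replicate 3 the value of Hsf2 was -0.33, with an unadjusted limma p of 0.0451 and an adjusted p of 0.166. Of the further heat shock factors and their binding partners, 3 of 4 genes were tested and 0 had an unadjusted limma p under 0.05. Hsbp1, the most abundant of them, had a log2 fold change of 0.09 (limma adjusted p = 0.534), Hsf4 had -0.16 (adjusted p = 0.7) and Hsbp1l1 had -0.61 (adjusted p = 0.331). Hspbp1, which exchanges the nucleotide of HSP70 and carries the Hspb prefix by name, was 8.25, 9.31 and 10.7 FPKM in the WT hearts and 13.3, 14.9 and 13.5 in the Mc4r KO hearts, without overlap (log2 fold change 0.56 ± 0.12, limma adjusted p = 0.0768).

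The cochaperones that surround these genes were examined as 9 lists with 89 genes, of which 87 were tested. At an unadjusted limma p under 0.05, 25 of them had higher (12% of all genes) and 3 had lower values (8.83% of all genes), and 1 was called. With scaling outside the mitochondrial chromosome these counts were 8 (4.93% of all genes) and 13 (18.1%), with quantile normalization 15 and 10, and with the GC trend removed 22 and 3, so the balance of higher and lower values depended on the scaling. Without WT replicate 3 they were 31 (15.6% of all genes) and 6 (12.6%). Limma then gave an adjusted p under 0.05 for 12 of the 87 with higher values (Fkbp5, Smyd1, Nudc, Ppp5c, Flnc, Pfdn1, Pfdn2, Pfdn6, Lonp1, Htra2, Atf4 and Ddit3; 6.94% of all genes) and for 2 with lower values (Canx and Sec63; 3.33%). The call was Fkbp5, an HSP90 cochaperone and a well-known target of glucocorticoids, which rose from 1.48, 1.90 and 2.11 FPKM in the WT hearts to 7.06, 4.31 and 8.57 in the Mc4r KO hearts. Every Mc4r KO heart was above every WT heart, with a log2 fold change of 1.77 ± 0.26 and a limma adjusted p of 0.0462. The call was lost under 13 of the 20 alternatives, with adjusted p between 0.0525 and 0.322. Of the 19 HSP90 cochaperones tested, 11 had higher and 0 had lower values at an unadjusted limma p under 0.05, with a median log2 fold change of 0.30. With scaling outside the mitochondrial chromosome these counts were 3 and 2 and the median 0.11. Smyd1, a muscle methyltransferase that works with HSP90 on myosin and the most abundant of the list, was 104, 108 and 111 FPKM against 133, 155 and 159 without overlap (log2 fold change 0.46, limma adjusted p = 0.0773). Unc45a, a myosin chaperone, had 0.49 (limma adjusted p = 0.0983).

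The other lists held fewer such genes. With scaling outside the mitochondrial chromosome, prefoldin held 2 with higher values and the unfolded protein response 1. The list of crystallins and client partners given above held 2 (Flnc and Synpo2), and the rest of these lists 0. Lower values under this scaling numbered 3 for endoplasmic reticulum chaperones, 2 for HSP70 cochaperones and 2 for mitochondrial proteases and chaperones. CCT, prefoldin, the unfolded protein response and the further heat shock factors held 1 each, and the crystallin list 0. The counts that follow are those of the fit on the deposited values. Of 14 cochaperones of HSP70, 2 had higher values at an unadjusted limma p under 0.05, Grpel1 and Grpel2 of the mitochondrial nucleotide exchange, and 1 had lower values, Sec63 of protein import into the endoplasmic reticulum, with Bag1 the most abundant. Of 8 CCT chaperonin subunits, which fold actin and tubulin, 1 (Cct3, log2 fold change 0.34, limma adjusted p = 0.142) had higher values, while Cct7 and Cct8 did not pass and Cct5 was the most abundant. Of 6 prefoldin subunits, Pfdn1 and Pfdn6 had higher values, and Pfdn5 was the most abundant. Of 10 genes of the unfolded protein response, Ddit3 and Atf4 had higher values, Ddit3 at 5.88, 5.93 and 5.07 FPKM against 9.67, 8.45 and 8.51 (log2 fold change 0.65, limma adjusted p = 0.0554), and the most abundant, Herpud1, overlapped. Of 9 mitochondrial proteases and chaperones, Lonp1 and Afg3l2 had higher and Clpx had lower values.

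The GC content of the genes moved with the comparison and is given beside these values. Weighted by FPKM outside the mitochondrial chromosome, it was 51.1%, 50.6% and 53.1% for WT and 52.3%, 52.5% and 53.1% for Mc4r KO. Over genes with a mean of at least 1 FPKM, the log2 fold change of all genes had medians, in 4 equal bins of GC content, from low to high, of -0.15, -0.03, 0.08 and 0.21. The members in the same bins had medians of -0.09 (18 genes), 0.08 (20 genes), 0.18 (15 genes) and 0.35 (11 genes). The small heat shock proteins are rich in GC, from 51.5% in Hspb3 to 61.7% in Hspb1, with Hspb7 at 57.5%, while Hsp90b1 had 42.1% and Dnajb9 40.6%. With the GC trend of each library removed, the log2 fold change of Hspb7 was 0.72, that of Dnaja4 0.58, that of Hspb2 0.79 and that of Hspa2 -0.87, while that of Hspb1 was 0.02 and that of Hsp90b1 -0.15. The median of the members was then 0.12, with 13 higher (10.1% of all genes) and 3 lower (9.5%) at an unadjusted limma p under 0.05. The part of GC content in the values of single genes was not tested beyond this.

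**Figure D5:**
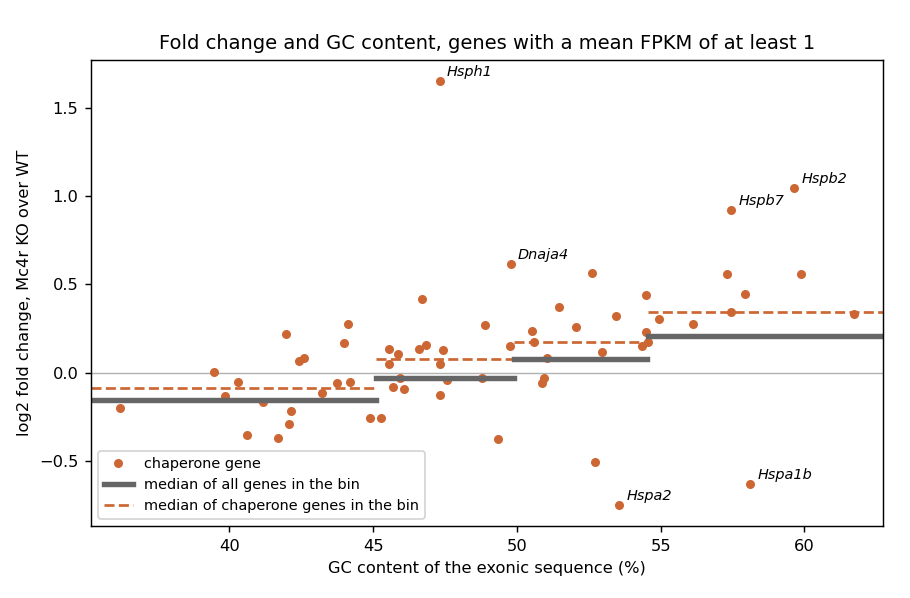
Log2 fold change, Mc4r KO over WT, against GC content for the 64 chaperone genes with a mean of at least 1 FPKM, with the median of all genes (grey lines) and of the chaperone genes (dashed lines) in each of 4 bins of GC content. The GC content is that of the longest transcript of each gene, which the axis names exonic sequence. The all-gene median runs from -0.15 in the lowest bin to 0.21 in the highest, and the chaperone median from -0.09 to 0.35.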

How the data were processed

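The authors removed low-quality reads, aligned with HISAT2 2.0.5 to mm10 (per the labels), counted with featureCounts and deposited FPKM per gene. FPKM times gene length was a whole number of reads for 100% of values in each library (tolerance 0.05), and the median-of-ratios factors were equal (1.01 each), so the deposited values already carried a scaling factor per library and no further scaling was used. The depth is given in the report; p-values measure the spread among 3 mice a group.

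limma 3.58.1 (R 4.3.3, trend) was run on log2(FPKM + 0.1) over the 18035 genes whose mean FPKM was 0.1 or more, with Benjamini-Hochberg adjustment, two-sided. It was tested on simulated data. The members, lists and tests were chosen with earlier results of these data known. Named are the 10 members with the smallest p in each direction, the 2 most abundant of each class, and fixed stress genes and regulators, and of the other lists the 3 smallest p and the most abundant gene. Hspb3, Hspb8, Hspb9, Dnajb4, Dnajb6, Dnajb13, Dnajc15, Dnajc24, Dnajc30, single cell type markers and the ratios between genes were added after their values were seen. Shared 50-base words and overlapping exons came from GENCODE M21, which held 99.8% of the identifiers. The GC content of a gene was that of its longest transcript there. Alternatives were pseudocounts of 1 and 0.01, other filters, quantile and non-mitochondrial scaling, no trend, robust fit, array weights, a replicate block, the mitochondrial ratio as covariate, limma voom, protein-coding genes only and leave-one-out, and, chosen after seeing the data, removal of a GC trend (lowess, span 0.3). Replicate numbers were not treated as pairs outside the replicate block, and whether they pair the mice is not known. Figures used Python 3.11.15 and matplotlib 3.10.9.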

Additional observations from a re-analysis of the deposited data

How the results depend on the processing

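The number of chaperone genes called, 0 with all libraries, was 1 (Hspb7 each time) with a mean FPKM of at least 1 (1.3% of all genes called), with robust empirical Bayes (0.543%) and with protein-coding genes only (1.51%), 2 with array weights (Hspb7 and Hspb2; 2.41%), 3 with limma voom on the recovered reads (Hspb7, Hspb2 and Hspa2; 1.76%), and 0 to 3 when 1 library was left out, with 3 without WT replicate 3 (4.04%). Higher values at an unadjusted limma p under 0.05, 17 in the reported fit, numbered 11 (9.96% of all genes) with quantile normalization, 7 (4.93%) with scaling outside the mitochondrial chromosome, 10 (5.77%) with the mitochondrial ratio as a covariate and 9 to 17 with 1 library left out, lowest without Mc4r KO replicate 2 (8.01%). Lower values, 4 in the reported fit, numbered 7 (9.34%) with quantile normalization, 12 (18.1%) with scaling outside the mitochondrial chromosome, 2 (8.39%) with no trend, 8 (11.7%) with array weights, 1 (5.04%) with the mitochondrial covariate, 7 (9.9%) with voom and 2 to 9 with 1 library left out (9 without WT replicate 3, 2 without WT replicate 2 or Mc4r KO replicate 3), beside 8.01% to 15.6% of all genes higher and 5.87% to 12.6% lower with 1 library left out. The median log2 fold change of the members, 0.13, was 0.0145 with quantile normalization, -0.0637 with scaling outside the mitochondrial chromosome and 0.05 to 0.15 with 1 library left out. Members with no overlap numbered 8 higher (6.42% of all genes) and 13 lower (22.3%) with scaling outside the mitochondrial chromosome and 9 lower (12.4%) with quantile normalization, and 17 to 25 higher and 5 to 12 lower with 1 library left out (9 lower without WT replicate 1 or Mc4r KO replicate 2, 12 without WT replicate 3), beside 17.1% to 22.3% of all genes higher and 15.9% to 22.7% lower. The causes were not tested.

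Of 979 values of 49 named genes under 20 alternatives, 916 kept their direction and their side of the threshold, 16 passed it, 13 (all Fkbp5) lost it and 34 changed sign, none of a called gene. With scaling outside the mitochondrial chromosome the log2 fold changes that turned were those of Dnaja3 (-0.0198), Hspd1 (-0.0412), Hspa4 (-0.0592), Hspa9 (-0.09), Dnaja2 (-0.11), Hspe1 (-0.0623), Hspb8 (-0.0803), Hsp90ab1 (-0.113) and Hspa5 (-0.144). With quantile normalization they were those of Hspd1 (-0.032), Hspa4 (-0.0089), Hspa9 (-0.093), Dnaja2 (-0.147), Hspe1 (-0.0544), Hspb8 (-0.0879), Hsp90ab1 (-0.111) and Hspa5 (-0.118). The mitochondrial covariate gave 0.18 for Dnajb9, 0.11 for Dnajc21, 0.15 for Hsf2, 0.42 for Hsp90aa1 and 0.33 for Hspa8. Removal of the GC trend gave 0.0438 for Hsf2, 0.0441 for Dnajc8, 0.0463 for Hsp90aa1 and 0.0262 for Hspa8, and array weights gave -0.0042 for Hspa5. With 1 library left out, values ran from -0.27 to 0.11 for Hsp90aa1, -0.17 to 0.11 for Hspa8, -0.0086 to 0.15 for Hspa5 and -0.0097 to 0.19 for Hspb8. Beside Hspb1, Hspd1 and Hspe1, given above, values over 1.5 times smaller without Mc4r KO replicate 2 included those of Dnaja2 (0.0409), Dnaja3 (0.0999), Hspa4 (0.0437), Hspa9 (0.0406) and Hsp90ab1 (0.0029). Without WT replicate 1 they included those of Dnajc10 (-0.165) and Dnajc21 (-0.106), and without WT replicate 3 that of Dnaja1 (-0.0812). With 1 library left out, the value of Dnajc8 reached -0.0198 and that of Hsf2 -0.1335. At this depth, the tested members Hspa1a, Hspa1l, Hspb9, Hspb11, Hspbap1, Dnajb3, Dnajb13 and Dnajc17 rested on fewer than 100 reads in each library.

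Libraries with the same replicate number in the 2 groups had correlated deviations of 0.00785, 0.0491 and -0.0284 over 10169 genes. Those with different numbers ran from -0.116 to 0.078. The values show no sign of pairing by number, but with 3 libraries a group they cannot decide whether the mice were paired. With the replicate block, 0 members were called, 15 had higher (11.3% of all genes) and 4 had lower values (7.83%) at an unadjusted limma p under 0.05, and the median log2 fold change was 0.13.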
